A study of Mus musculus with 12 samples.

Results

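Ribosomal protein pseudogenes are rows of the gene table whose name starts with Rpl or Rps and contains -ps, and 246 of the 41128 genes in the table carry such a name. Of these, 148 are copies of large subunit (Rpl) genes and 98 are copies of small subunit (Rps) genes. The part of the name before -ps gives the parent gene. The names point to 59 parents, of which 58 are in the table. RNA of C57BL/6J mice aged 6 to 8 weeks was sequenced from sorted spleen cells, giving 12 libraries in 4 groups of 3. Resting B cells (CD43-) were taken from each sex, as were naive CD4+ T cells sorted as CD62L high, CD44 low and CD25-. The mice were untreated as far as the labels state, and each library came from pooled animals, so its spread is a spread between pools or preparations.

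Processed pseudogenes arise when a messenger RNA is copied back into DNA and inserted elsewhere in the genome without its introns. Ribosomal protein genes, which encode the structural proteins of the ribosome and are transcribed strongly in most cells, have left many such copies in mammalian genomes. A read from the parent messenger RNA and a read from a young copy can carry the same letters, so the amount assigned to each depends on how such reads were shared out.

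In GENCODE M21, the annotation of GRCm38 used here for positions and transcript sequences, 242 members had an entry. Of these, 230 were processed pseudogenes, 6 were transcribed processed pseudogenes and 6 were annotated as protein-coding. Most members stood alone: 169 lay in no other gene, 47 in an intron of a gene on the opposite strand, 19 in an intron of a gene on the same strand, and 7 overlapped an exon, 5 of them on the same strand and 2 on the opposite strand. The X chromosome held 35 members, or 14.5% of those with an entry, against 6.38% of all genes of the table with an entry. The largest families were those of Rpl31 with 22 members, Rps12 with 21 and Rps19 with 14.

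Members were close copies. Over the aligned bases, the median identity to the parent transcript was 96.7% in the 239 members that could be aligned, and 13 of them had no mismatch. Each member's transcript was also divided into all its overlapping windows of 50 bases, and a window was called unique when no transcript of another gene held it. In 32 members no window was unique. The whole transcript of 27 members lay inside a transcript of another gene, in 12 of them inside the parent's. The longest reading frame was at least as long as the parent's in 88 of 239 members, and under 50% of that length in 88. Only lengths were compared, so it was not checked whether the frame was that of the parent.

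Copies of Rpl35a, which encodes a protein of the large subunit, are shown first because Rpl35a-ps4 was the highest member and because several copies share the same letters. The stretch is the 140 bases that end at base 250 of the Rpl35a reading frame, counted from the A of its start codon, and capitals mark bases that differ from the parent. Rpl35a-ps2, Rpl35a-ps3, Rpl35a-ps4 and Rpl35a-ps6 share the letters printed for Rpl35a-ps4, and their transcripts of 333 bases are the same from end to end.
Rpl35a: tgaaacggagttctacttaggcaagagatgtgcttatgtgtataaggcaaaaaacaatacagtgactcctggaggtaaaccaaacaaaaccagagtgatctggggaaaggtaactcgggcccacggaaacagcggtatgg
Rpl35a-ps4: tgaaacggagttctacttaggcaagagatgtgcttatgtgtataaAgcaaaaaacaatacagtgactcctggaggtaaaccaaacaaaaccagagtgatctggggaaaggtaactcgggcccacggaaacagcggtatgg
Rpl35a-ps5: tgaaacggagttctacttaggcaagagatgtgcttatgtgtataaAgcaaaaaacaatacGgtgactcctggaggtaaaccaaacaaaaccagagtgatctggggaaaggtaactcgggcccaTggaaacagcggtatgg
Rpl35a-ps7: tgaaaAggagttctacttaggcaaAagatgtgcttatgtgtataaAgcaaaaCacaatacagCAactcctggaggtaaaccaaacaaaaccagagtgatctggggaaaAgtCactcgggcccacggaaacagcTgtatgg

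Over the whole frame, Rpl35a-ps4 differed from Rpl35a by the substitution G156A alone, Rpl35a-ps5 by 3 substitutions and Rpl35a-ps7 by 11. The copies lie apart in the genome (GRCm38, minus strand unless stated): Rpl35a-ps2 at chr1:181241988-181242320, Rpl35a-ps3 at chr17:29136972-29137304 in an intron of Rab44 on the opposite strand, Rpl35a-ps4 at chr2:108874926-108875258, Rpl35a-ps5 at chr5:33076038-33076370 on the plus strand, Rpl35a-ps6 at chr5:123255481-123255813 in an intron of Wdr66 on the opposite strand and Rpl35a-ps7 at chr6:47815300-47815632. A gene that is no member, Gm10243, had the same 333 bases as Rpl35a-ps4. In all, 16 members had a transcript equal to that of another gene, in 6 sets of 19 genes.

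Copies of Rps10 and Rpl9 are shown because members of both families differed between the sexes in B cells. RPS10 belongs to the small subunit and RPL9 to the large subunit. The Rps10 stretch is the 100 bases that end at base 480 of the parent's reading frame. It holds the 5 substitutions of Rps10-ps2 (chr16:20822145-20822640, minus strand), of which T393C, T408C, C437G and G473A are not shared with Rps10-ps1 (chr3:95622278-95622772, plus strand).
Rps10: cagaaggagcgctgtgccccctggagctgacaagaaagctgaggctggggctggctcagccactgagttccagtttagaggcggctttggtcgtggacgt
Rps10-ps1: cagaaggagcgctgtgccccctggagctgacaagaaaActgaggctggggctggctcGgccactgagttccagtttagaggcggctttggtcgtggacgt
Rps10-ps2: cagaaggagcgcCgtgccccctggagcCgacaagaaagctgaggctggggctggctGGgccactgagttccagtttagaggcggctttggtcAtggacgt

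The Rpl9 stretch is the 100 bases that end at base 290 of the parent's reading frame. It shows 1 of the 3 substitutions of Rpl9-ps7 (chr2:70458982-70459560, plus strand), C203T, and the only substitution in the frame of Rpl9-ps6 (chr19:32465865-32466578, minus strand), G266A, and of Rpl9-ps4 (chr13:72454762-72455340, minus strand), C237T.
Rpl9: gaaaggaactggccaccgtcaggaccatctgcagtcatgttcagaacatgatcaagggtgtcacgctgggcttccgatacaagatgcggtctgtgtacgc
Rpl9-ps7: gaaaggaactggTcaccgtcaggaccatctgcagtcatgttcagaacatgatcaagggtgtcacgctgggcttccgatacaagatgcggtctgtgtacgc
Rpl9-ps6: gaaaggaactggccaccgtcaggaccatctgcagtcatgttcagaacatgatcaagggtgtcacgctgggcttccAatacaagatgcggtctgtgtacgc
Rpl9-ps4: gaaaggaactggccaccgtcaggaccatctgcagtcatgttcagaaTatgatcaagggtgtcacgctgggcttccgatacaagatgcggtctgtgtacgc

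Levels are given as adjusted TPM, a length-corrected transcript share, with a lower and an upper bound for each value. How the authors adjusted this share is not given in the sources used here. Sequencing depth is unknown, and totals per library ran from 561020 to 1453940. The labelled cell types were checked against their markers: 4 B cell genes summed to 2220 to 2643 in B cell and 0.896 to 4.91 in T cell libraries, and 5 T cell genes to 9.76 to 14.1 and 1017 to 1194. Spn, which encodes CD43, was at 6.00 to 8.46 in B cell and 168 to 201 in T cell libraries. It was 1 of 4 genes checked as markers that cells were sorted against. Of the others, Cd8b1 was at 0.0153 to 0.0804 in B cell and 5.25 to 8.11 in T cell libraries. Il2ra, which encodes CD25, ran from 0.158 through a median of 0.2902 to 4.999 in T cell libraries, and from 0.432 to 1.11 in B cell libraries. Klrb1c was at 0.248 or less in B cell and 0.0415 or less in T cell libraries. Traces of other cells varied, as the summed level of 3 erythroid genes was 0.618 to 157 in B cells and 2.12 to 33.5 in T cells, and their part in the results below was not tested.

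Most members were low. The filter for testing, an adjusted TPM no lower than 1 in 3 or more libraries, was met by 134 members (54.5%), against 30.4% of all genes in the table. The other 112 did not reach it, and 64 stayed under 0.1 in all 12 libraries. Of the 134 past the filter, 20 had fewer than 3 B cell libraries at 1 or more, and 0 had fewer than 3 T cell libraries at 1 or more. Averaged over the 12 libraries, 26 members were above 10, and only Rpl35a-ps4 was above 10% of its parent, while 127 were below 0.1% of theirs.

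Level followed likeness to the parent. Members past the filter had a median identity of 98.7% and those not past it 92.1%. Across the 239 aligned members, Spearman's rho between log2 mean level and identity was 0.763, and across 242 members it was -0.535 between log2 mean level and the share of unique windows. Between the log2 mean levels of member and parent rho was 0.117 over 245 members. These are descriptions across genes of the same libraries, and members of a family share a parent. Among the 87 members with at least 75% unique windows, 18 were past the filter, and the highest mean level among them, chosen for naming after its value was seen, was 3.61 in Rpl13a-ps1.

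**Figure D1:**
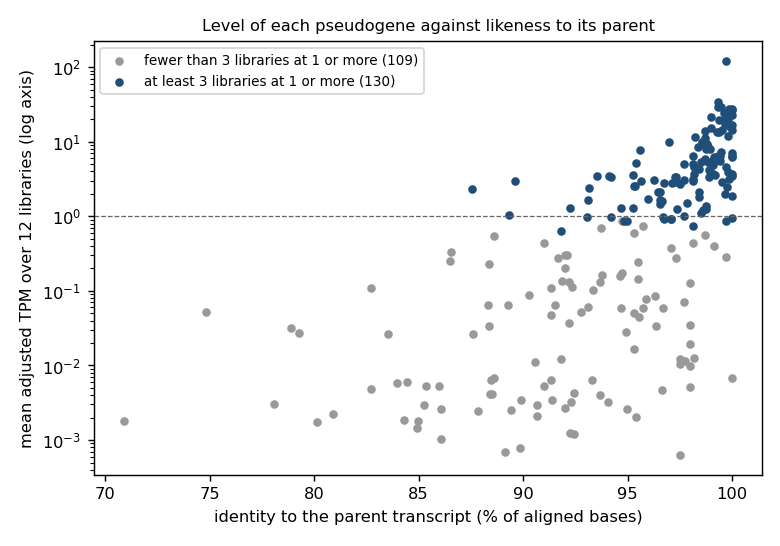
Mean adjusted TPM over 12 libraries (log axis) of each of the 239 aligned pseudogenes against its identity to the parent transcript in percent of aligned bases; each point is 1 pseudogene, and the dashed line marks an adjusted TPM of 1. Pseudogenes past the filter (blue) gather at high identity, with a median of 98.7% against 92.1% in the others (grey).

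The deposited bounds were wide for members. The upper bound divided by the lower had a median of 1.68 in members and 1.27 in all other genes except parents for values between 3 and 10, and of 1.37 and 1.16 for values between 10 and 30. Replicates of a group had bounds that did not overlap in 7.90% of replicate pairs for members past the filter, in 88.2% for parents and in 25.4% for the other genes tested.

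The 6 members with the highest mean level are described first. Rpl35a-ps4 had an adjusted TPM of 54.8, 85.7 and 65.8 in female B cells, 85.7, 100.5 and 95.2 in male B cells, 192, 136 and 144 in female T cells, and 175, 170 and 144 in male T cells. All T cell libraries were above all B cell libraries. Its mean was 11.2% of that of Rpl35a, and it made up 9.14% to 14.4% of the summed level of all members in a library. Since 4 other genes have the same 333 bases and none of its windows was unique, its level depends on how shared reads were assigned. The sum of these genes is given below. Its log2 fold change, B minus T cells on log2(adjusted TPM + 1), was -0.99 ± 0.11 (SE), with an adjusted p from limma of 5.3e-06.

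Rpsa-ps10 (chr3:150072658-150073542, minus strand) is a copy of Rpsa, which encodes a small subunit protein also known as a laminin receptor. Its adjusted TPM ran from 18.2 through a median of 20.97 to 23.0 in B cells and from 36.5 through 46.2 to 55.8 in T cells. Rpl39-ps (chr15:102635038-102635188, plus strand), a copy of the gene of one of the smallest large subunit proteins, ran from 15.9 through a median of 18.0 to 19.6 in B cells and from 33.6 through 39.5 to 55.0 in T cells. Neither overlapped between cell types, and their log2 fold changes were -1.14 ± 0.10 and -1.15 ± 0.09 (SE), with limma adjusted p of 2.1e-07 and 1.1e-07.

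Rpl9-ps7 ran from 9.85 through a median of 17.3 to 26.1 in B cells and from 35.0 through 39.5 to 48.4 in T cells. Rpl19-ps11 (chr8:19492936-19493526, plus strand), a copy of a large subunit gene that differs from it at 1 aligned base, ran from 12.6 through 17.0 to 20.2 in B cells and from 31.3 through 37.5 to 43.9 in T cells. It overlaps an exon of Gm27288 on the same strand. For both, every T cell library lay above every B cell library, with log2 fold changes of -1.25 ± 0.10 and -1.096 ± 0.10 (SE) and limma adjusted p of 1.1e-07 and 7.9e-07.

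Rps12-ps3 (chr19:59322290-59322783, plus strand), annotated as protein-coding and lying in an intron of Pdzd8 on the opposite strand, was the exception among the 6. All of its 494 bases lie in a transcript of Rps12, its small subunit parent. It ran from 17.5 through 21.5 to 31.8 in B cells and from 26.4 through 30.8 to 43.7 in T cells, so that the cell types overlapped. Its log2 fold change was -0.53 ± 0.15 (SE, limma adjusted p = 0.0065), and the call was lost when every library was rescaled to the same total (-0.16, adjusted p = 0.49). Measured against their parents, the 4 largest shares were 11.2% in Rpl35a-ps4, 3.63% in Rpl39-ps, 2.55% in Rpsa-ps10 and 2.07% in Rps13-ps1 (chr8:87047689-87048226, plus strand), a copy of a small subunit gene.

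**Figure D2:**
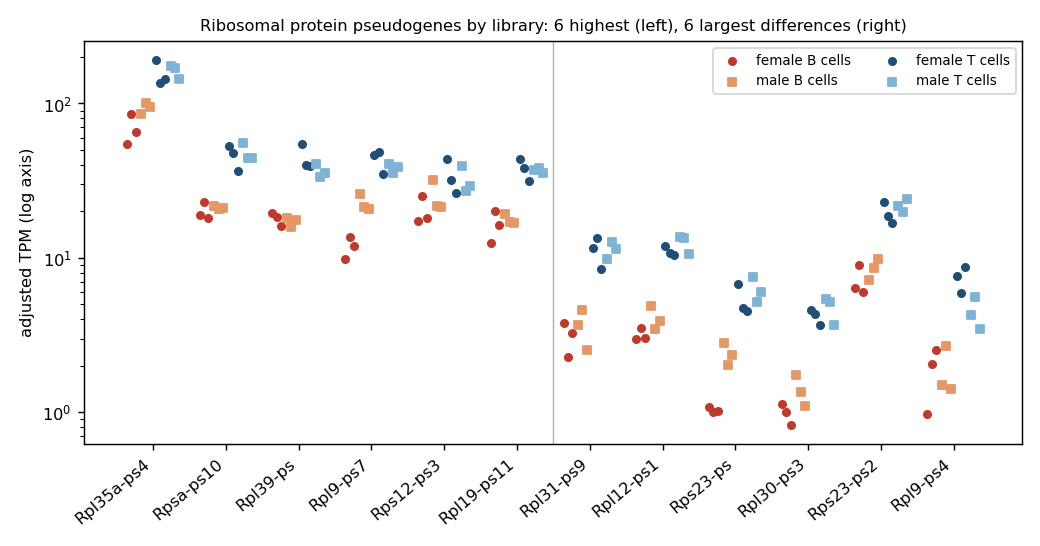
Adjusted TPM (log axis) of 12 pseudogenes in each of the 12 libraries, 3 per group; circles are female, squares male, red and orange B cells, dark and light blue T cells. Left of the line are the 6 with the highest mean, right of it the 6 with the largest differences between cell types; all but Rps12-ps3 separate B from T cell libraries.

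B cells were compared with T cells to see how the members behave between 2 lymphocyte lineages. The summed level of all 246 members averaged 686 ± 82.0 (SD) over the 6 B cell libraries, from 586 to 805, and 1381 ± 139 (SD) over the 6 T cell libraries, from 1175 to 1578, with no overlap. As a share of each library's total, the members made up 0.0599% to 0.104% in B cells and 0.0922% to 0.174% in T cells, so that on this scale the cell types overlapped, with male T cell 6 below 5 of the 6 B cell libraries. The parents summed to 46668 ± 5431 (SD) in the former and 89671 ± 10179 (SD) in the latter. In each library the members added up to between 1.29% and 1.61% of the parents. The summed level of 3 monocyte genes was 8.95 to 13.1 in B cell and 1.06 to 4.55 in T cell libraries. That of 2 plasma cell genes was 49.1 to 63.4 and 24.6 to 30.9. Of these 2, Sdc1 was at 5.48 to 6.82 in B cell and 0.00198 to 0.00545 in T cell libraries, and Xbp1 made up the rest. The part of either list in the difference was not tested. In bulk libraries fewer cells of a type and less RNA per cell cannot be told apart.

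Of the 134 members tested, 121 passed the threshold (limma adjusted p under 0.05) as higher in T cells and 2 as higher in B cells. Over all 12520 genes tested, 73.0% passed in either direction, 41.6% as higher in T cells and 31.4% as higher in B cells. In 86 members all T cell libraries lay above all B cell libraries, against 29.7% of all genes in that direction and 53.9% in either, and in 0 the reverse, against 24.2%. The 20 members with fewer than 3 B cell libraries at 1 or more needed T cell libraries to pass the filter. This favours a higher level there. Over all 246 members, without a filter, the ratio of means was above 1 for T over B cells in 194 and below 1 in 52. It was above 1 in 118 of the 121 members with a mean of 1 or more, and in 76 of the 125 with a lower mean. Fitted without a filter, the median log2 fold change, B minus T, was -0.29 over the 246 members and -2.0e-06 over all 41128 genes. The median log2 fold change, B minus T, was -0.76 over the members tested, -0.91 over the 58 parents and -0.09 over all genes tested. Among the parents 56 passed as higher in T cells and 1, Rps4l, as higher in B cells. Rps4l is a relative of the small subunit gene Rps4x and is itself annotated as a transcribed processed pseudogene. Rpl7l1, a relative of Rpl7, was not past the threshold. These 2 parents were named after their values were seen.

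The split depends on scale. With each library rescaled to the same total, the median of all genes moved by 0.34 (log2), to 0.25, and 84 members passed as higher in T cells and 2 as higher in B cells. Of the parents, 24 passed as higher in T cells and 2 as higher in B cells. With quantile normalization 40 parents and 128 members passed as higher in T cells, and the median log2 fold change was -0.32 in parents and -0.84 in members. Of all 12520 genes tested in that setting, 5285 passed as higher in T cells and 3884 as higher in B cells. With a pseudocount of 5 in place of 1, which shrinks low genes more, the members' median was -0.41 and the parents' -0.90. The calls over all genes moved under rescaling from 3926 higher in B and 5208 higher in T cells to 4812 and 1985. Relative to the median of all genes, the members' median was -0.67 on the deposited scale and -0.74 after rescaling.

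The 6 largest differences among members without overlap were all toward T cells. Rpl31-ps9 (chr1:129801387-129801764, minus strand), in an intron of Thsd7b on the opposite strand, had an adjusted TPM from 2.29 through a median of 3.46 to 4.64 in B cells and from 8.45 through 11.5 to 13.5 in T cells. Its parent encodes a large subunit protein. The log2 fold change was -1.496 ± 0.14 (SE, limma adjusted p = 6.6e-07), and the ratio of means, T over B, was 3.34, against 2.06 in Rpl31.

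Rpl12-ps1 (chr1:36957930-36958427, minus strand), with 22 mismatches to its parent, ran from 3.00 through 3.49 to 4.89 in B cells and from 10.4 through 11.3 to 13.6 in T cells, and its log2 fold change was -1.47 ± 0.08 (SE, limma adjusted p = 4.6e-09). RPL12 lies at the base of the ribosomal stalk. The ratio of means was 3.25 in the copy and 2.55 in the parent.

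Rps23-ps (chr3:37714740-37715164, plus strand) and Rps23-ps2 (chr8:3583799-3584230, minus strand) are copies of the gene of a small subunit protein near the decoding centre. All 425 bases of Rps23-ps lie in a transcript of Rps23, and Rps23-ps2 differs from the Rps23 frame by C57T and G316C. Rps23-ps ran from 0.999 through 1.55 to 2.81 in B cells and from 4.52 through 5.60 to 7.49 in T cells, and Rps23-ps2 from 6.03 through 7.94 to 9.89 and from 16.8 through 20.8 to 24.2. Their log2 fold changes were -1.35 ± 0.10 and -1.30 ± 0.11 (SE), with limma adjusted p of 9.0e-08 and 2.1e-07.

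Rpl30-ps3 (chr2:90747616-90747963, minus strand), in an intron of Fnbp4 on the opposite strand, ran from 0.826 through 1.12 to 1.76 in B cells and from 3.67 through 4.46 to 5.399 in T cells, with a log2 fold change of -1.32 ± 0.10 (SE, limma adjusted p = 6.4e-08). Rpl9-ps4 ran from 0.976 through 1.78 to 2.71 and from 3.47 through 5.77 to 8.69, with -1.26 ± 0.16 (SE, limma adjusted p = 1.5e-05). For both, the ratio of means, T over B, was above that of the parent, at 3.74 against 2.23 and 3.18 against 1.99.

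On the deposited scale, members and parents had ratios of similar size. The ratio of means, T over B, had a median of 1.98 in the members tested, 1.87 in the parents and 1.07 in all genes tested. For 122 of 134 members the ratio was within 1.5 times of the parent's, for 5 it was more than 1.5 times above it and for 7 more than 1.5 times below it. Across the 134 members, Spearman's rho between the log2 ratios of member and parent was 0.616, and across 50 family medians it was 0.742. Members and parents were measured in the same libraries and can share reads.

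**Figure D3:**
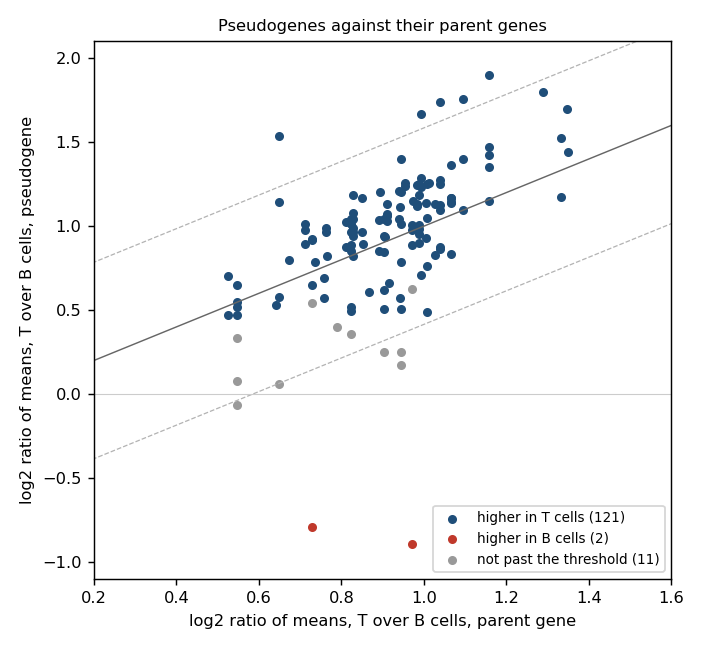
Log2 ratio of means, T over B cells, of each of the 134 pseudogenes past the filter against that of its parent gene; the solid line marks equal ratios and the dashed lines a 1.5-fold distance from it. Of the points, 121 passed the threshold as higher in T cells (blue), 2 as higher in B cells (red) and 11 did not pass (grey), and 122 lie between the dashed lines.

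Calls toward T cells were also made in members with mostly unique sequence. Among the 18 tested members with at least 75% unique windows, 15 passed as higher in T cells, against 41.6% of all genes tested. Of the others, 1 passed as higher in B cells (31.4% of all genes) and 2 did not pass. In 5, all T cell libraries lay above all B cell libraries, against 29.7% of all genes in that direction and 53.9% in either. The ratio of means, T over B, had a median of 1.69 in the 18. The same median was 2.01 in the 61 members with 25% to under 75% unique windows, of which 55 passed as higher in T cells and 39 did not overlap. It was 2.06 in the 35 with some but under 25%, with 34 passing and 28 without overlap, and 1.98 in the 18 with none, with 15 passing and 13 without overlap. Differences between these classes were not tested, and the mostly unique members were also the lowest, with a median level of 1.46. Rpl13a-ps1, a copy of a large subunit gene with 85.8% unique windows and the highest of them, had a B cell median of 2.43 and a T cell median of 4.94. The filter applied to all of these counts, so they describe the members tested only. Without the filter, the median ratio of means, T over B, was 1.26 over the 87 members with at least 75% unique windows. It was 1.86 over the 82 with 25% to under 75%, 1.97 over the 41 with some but under 25%, and 1.80 over the 32 with none.

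Rps2-ps9 (chr17:27784379-27785246, plus strand), named after its values were seen, was 1 of the 2 members called higher in B cells. It is a copy of a small subunit gene with 44 mismatches and 79.3% unique windows, annotated as a transcribed processed pseudogene in an intron of D17Wsu92e on the opposite strand. Its adjusted TPM was 2.38, 2.098 and 2.09 in female B cells, 1.68, 1.87 and 2.32 in male B cells, 0.739, 0.848 and 1.48 in female T cells, and 0.770, 1.56 and 1.80 in male T cells. The highest T cell library lay above the lowest B cell library, and the log2 fold change was 0.50 ± 0.12 (SE, limma adjusted p = 0.0025), while Rps2 had a ratio of means, T over B, of 1.66. The other was Rpl35a-ps3, described below. The 11 members that were not past the threshold had a ratio of means, T over B, from 0.956 to 1.55.

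Females and males were compared within B cells. The sample descriptions also carry a further digit whose meaning is not stated. It was the same in female B and male T cells, and differed from that of male B and female T cells. Within a cell type, a difference between the sexes therefore cannot be told apart from one that goes with this digit. Of the 134 members tested, 3 passed the threshold (2.24%), Rpl35a-ps3 as higher in females and Rps10-ps2 and Rpl9-ps7 as higher in males. Over all genes tested 0.144% passed, 0.0559% as higher in females and 0.0879% as higher in males. At an unadjusted p under 0.05 there were 25 members (18.7%), against 2.98% of all genes. In 27 members the 3 female and 3 male libraries did not overlap, against a background of 7.20%, with males higher in 22 (3.85% of all genes) and females in 5 (3.35% of all genes). Of the parents, 0 of 58 passed, and 1 had an unadjusted p under 0.05. With B cell libraries fitted alone, 0 members passed, with adjusted p of 0.12 for Rpl35a-ps3, 0.082 for Rps10-ps2 and 0.33 for Rpl9-ps7. The summed level of the monocyte genes was 8.95 to 11.3 in female and 11.4 to 13.1 in male B cells. That of 3 erythroid genes was 0.618, 27.2 and 28.3 in female and 2.30, 77.6 and 157 in male B cells, in order of size. The part of either in the result was not tested.

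Rpl35a-ps3 had an adjusted TPM of 8.84, 7.40 and 13.6 in female B cells and 2.05, 2.01 and 1.39 in male B cells. In T cells it was 3.34, 3.41 and 4.55 in females and 3.15, 2.56 and 1.98 in males. Female B cells thus stood above every other library. The log2 fold change, female minus male B cells, was 1.93 ± 0.19 (SE, limma adjusted p = 0.00077). Its deposited bounds were wide: in female B cells the lower bounds were 0.005, 0.004 and 0.009 and the upper bounds 45.5, 41.8 and 43.4, and on the lower bounds the log2 fold change was 0.01 (adjusted p = 1).

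The annotated transcript of Rpl35a-ps3 is the same, base for base, as those of Rpl35a-ps2, Rpl35a-ps4, Rpl35a-ps6 and Gm10243, so no read within it can be placed by sequence alone. The summed level of these 5 genes was 71.1, 107 and 85.7 in female B cells and 96.3, 109 and 108 in male B cells. The sum overlapped between the sexes, and its log2 fold change turned to the other direction, at -0.26 ± 0.15 (SE, limma adjusted p = 1). Rpl35a itself had 620, 761 and 698 in female and 874, 700 and 734 in male B cells. The call of Rpl35a-ps3 as higher in B than in T cells (0.42 ± 0.14 SE, limma adjusted p = 0.016) also turned in the sum, which was higher in T cells with a log2 fold change of -0.90 ± 0.11 (SE, limma adjusted p = 6.5e-06). Summing the sets of identical genes was an alternative added after the data were seen. It left 133 units, of which 122 passed as higher in T cells, 1 as higher in B cells, and 2, Rps10-ps2 and Rpl9-ps7, between the sexes in B cells. Over all genes and sums in that fit, 73.0% passed between cell types in either direction and 0.136% between the sexes in B cells.

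**Figure D4:**
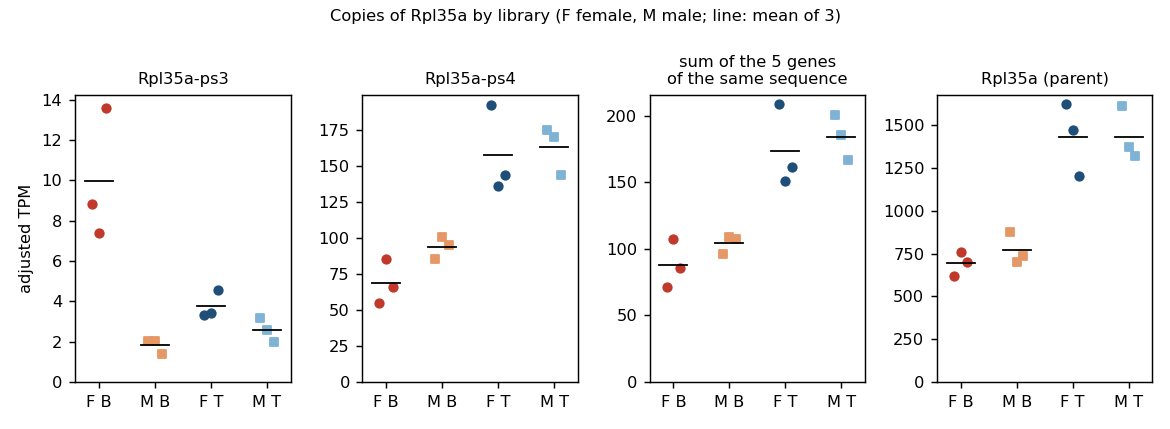
Adjusted TPM of Rpl35a-ps3, of Rpl35a-ps4, of the sum of the 5 genes with the same annotated 333 bases, and of the parent Rpl35a in each library; each axis starts at 0, points are libraries (F female, M male, 3 per group) and lines are group means. Female B cells stand out in Rpl35a-ps3, with 7.40 to 13.6 against 1.39 to 2.05 in male B cells, and overlap male B cells in the sum.

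Rps10-ps2 had an adjusted TPM of 4.48, 6.10 and 5.45 in female B cells and 13.4, 13.1 and 12.1 in male B cells, with no overlap. In T cells it was 22.1, 23.1 and 17.4 in females and 21.5, 26.3 and 18.7 in males, so that the sexes overlapped there. The log2 fold change in B cells was -1.14 ± 0.14 (SE, limma adjusted p = 0.0035). The upper bounds in female B cells, 6.91, 8.00 and 7.30, were below the lower bounds in male B cells, 9.10, 8.84 and 9.37.

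The second copy, Rps10-ps1, named like Rpl9-ps6 after its values were seen, had 3.73, 4.42 and 4.08 in female and 8.00, 5.93 and 6.89 in male B cells. It did not overlap either, but was not past the threshold (-0.64 ± 0.13 SE, limma adjusted p = 0.13). The parent Rps10 had 498, 667 and 561 in female and 712, 558 and 589 in male B cells, with overlap and a log2 fold change of -0.11 ± 0.16 (SE). With all 4 Rps10 members summed, an alternative added after the data were seen, the level averaged 9.63 ± 1.13 (SD) over the 3 female and 20.1 ± 1.27 (SD) over the 3 male B cell libraries. The log2 fold change of this sum was -0.99 ± 0.12 (SE, limma adjusted p = 0.0042). Of 51 families tested, that of Rps10 was the only 1 to pass between the sexes in B cells, against 0.121% of all genes and sums in that fit.

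Rpl9-ps7 had 9.85, 13.7 and 11.98 in female and 26.1, 21.3 and 20.9 in male B cells, with no overlap. In T cells it was 46.3, 48.4 and 35.0 in females and 40.3, 35.3 and 38.7 in males. The log2 fold change in B cells was -0.89 ± 0.14 (SE, limma adjusted p = 0.024). Leaving out any 1 of 6 libraries, namely female B cell 1 or 3, male B cell 1, 2 or 3 or male T cell 6, ended the call, with an adjusted p between 0.058 and 0.12. Rescaling to the same total ended it as well (adjusted p = 0.12) and left 2 members past the threshold in this comparison.

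A close copy, Rpl9-ps6, had 8.32, 11.7 and 9.53 in female and 19.0, 15.1 and 15.4 in male B cells, without overlap (-0.69 ± 0.17 SE, limma adjusted p = 0.43). Rpl9-ps4 had 0.976, 2.05 and 2.53 in female and 1.498, 2.71 and 1.42 in male B cells and overlapped. The parent had 887, 1116 and 1029 in females and 1240, 1052 and 978 in males. The sum of the 7 Rpl9 members averaged 24.3 ± 4.24 (SD) over the 3 female and 41.8 ± 4.62 (SD) over the 3 male B cell libraries, and was not past the threshold (limma adjusted p = 0.084).

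**Figure D5:**
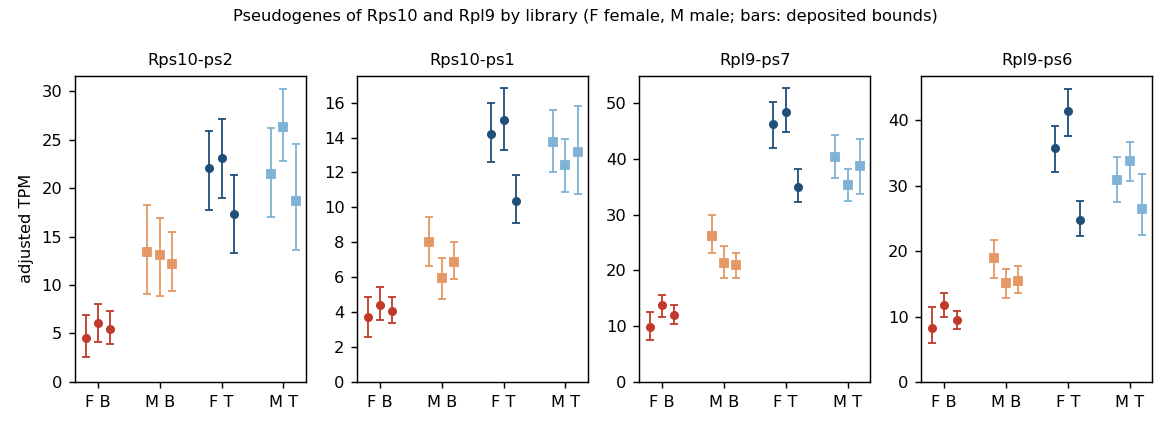
Adjusted TPM of Rps10-ps2, Rps10-ps1, Rpl9-ps7 and Rpl9-ps6 in each library; each axis starts at 0, points are libraries (F female, M male, B and T cells, 3 per group) and bars run from the lower to the upper deposited bound. In B cells every male library lies above every female library in all 4, as in Rps10-ps2 with 12.1 to 13.4 against 4.48 to 6.10, while in T cells the sexes overlap.

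In T cells 0 of the 134 members passed between females and males by limma, against 0.104% of all genes (0.0479% higher in females and 0.0559% higher in males). An unadjusted p under 0.05 was found in 11 members, or 8.21% of those tested, against 2.55% of all genes. The sexes did not overlap in 15 members, against a background of 8.49%, with females higher in 8 (4.40% of all genes) and males in 7 (4.09% of all genes).

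The difference of the sex effects, B cells minus T cells, passed in 0 members and in 0.0% of all genes by limma, and 20 members (14.9%) had an unadjusted p under 0.05, against 2.36% of all genes. The smallest adjusted p was 0.21. It was that of Rpl17-ps9 (chr7:36118274-36118828, plus strand), Rpl35a-ps3, Rps10-ps2 and Rpl9-ps7, and the latter 3 had differences of 1.51 ± 0.28, -1.06 ± 0.19 and -1.06 ± 0.20 (log2, SE). Rpl17-ps9, a copy of a large subunit gene, had 0.977, 1.41 and 1.35 in female B cells, 2.16, 2.13 and 1.81 in male B cells, 2.65, 2.90 and 2.83 in female T cells and 1.61, 1.97 and 2.11 in male T cells. Males were above females in B cells and below them in T cells, without overlap in either, and the difference of the effects was -0.83 ± 0.15 (log2, SE). Since the adjusted p missed the threshold, the sex effects of these members were not shown to differ between the cell types. This contrast is also the one between the values of the further digit in the sample descriptions, and cannot be told apart from it.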

How the data were processed

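RNA was measured in 12 libraries of 1000000 cells per extraction, freed of ribosomal RNA and made strand-specific. Per the submitters' processing notes, Trim Galore, FastQC and STAR were used with mm10. The quantifier, its annotation, the adjustment and the level of the bounds are not given in the sources used here. The deposited signal, adjusted TPM with bounds, is not a read count, so depth is unknown, no value is 0 and precision was read from the bounds. No column of per-sample values was left out. Some label fields say genomic DNA, while the protocol describes RNA.

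Genes at 1 or more in at least 3 libraries (12520) were fitted with limma 3.58.1 (R 4.3.3) on log2(adjusted TPM + 1), which understates changes of low genes, with 1 coefficient per group, a variance trend and Benjamini-Hochberg adjustment over all genes. The fit was tested on simulated data. Transcripts of GENCODE M21 were compared by windows of 50 bases, blastn 2.17.0 and edlib, and 4 members without an entry were left out. Reading frames are the longest from a start to a stop codon. Sequences were read from those transcripts.

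Named were the 6 highest members, the 6 largest differences per direction without overlap between cell types, members past the threshold between the sexes (at most 6 per direction), the 2 smallest adjusted p for the difference of sex effects, the 4 largest shares of the parent, and the parents. The members and lists were chosen with earlier results of these data known. Groups and replicate numbers come from the labels. Same-numbered T cell libraries deviated together (correlations of deviations 0.72, 0.55 and 0.52), but the sample titles give numbers only and state no pairing. The main fit does not use the numbers. Alternatives were other pseudocounts, filters and scalings, the bounds, leaving out a library and a replicate block.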

Additional observations from a re-analysis of the deposited data

How the results depend on the processing

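For B against T cells, the number of members past the threshold was 123 and between 117 and 124 with any 1 library left out, and rescaling lowered it to 86. Over all 12520 genes tested the number was 9134, between 8717 and 9193 with any 1 library left out, and 6797 after rescaling. In B cells, 3 members passed between the sexes, 2 to 4 with 1 library left out, 0 with B cell libraries alone, 0 with a replicate block, 2 after rescaling and 55 of 246 with no filter, where 10985 of all 41128 genes passed. Same-numbered B cell libraries did not deviate together (correlations -0.17, -0.04 and -0.34), so no pairing by number was seen there. In T cells, 0 passed, 0 with the replicate block, 0 to 1 with 1 library left out (1 without male B cell 3), 2 after rescaling to the same total and 49 with no filter (10607 of all genes). For the difference of sex effects, 0 passed, 0 with 1 library left out and 0 with the replicate block. After rescaling 1 passed (16 of all genes tested), and with no filter 54 (11201 of all genes). For Rpl35a-ps3, summing the genes of identical sequence turned the sex difference in B cells to -0.26 and the difference of sex effects to -0.17, and on the lower bounds the latter was -0.015. After rescaling, the summed level of the members was 949 ± 175 (SD) in B cells and 1469 ± 284 (SD) in T cells, with overlap. Of 407 checks of 18 results on named members, 387 kept direction and side of the threshold.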
